A study of Mus musculus with 8 samples.

Results

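Canonical histone genes encode the bulk of the histone proteins that package newly replicated DNA, and they were examined here in mouse embryos at embryonic day 8.5 (E8.5) whose fathers differed in Eed genotype. On the arrays, 48 of 55681 distinct probes carried a RefSeq accession that belonged to 1 of these genes, and the 48 probes read 44 genes. Members were chosen by name alone. A probe belonged if its gene's current symbol began with H1f, H2ac, H2bc, H3c or H4c plus a number and the gene had formerly been named Hist1h, Hist2h, Hist3h or Hist4h. By type they were 6 probes of 6 H1 genes, 14 probes of 13 H2A genes, 10 probes of 10 H2B genes, 7 probes of 7 H3 genes and 11 probes of 8 H4 genes. The reference table listed 64 genes of this kind, and 20 of them had no probe matched to them here.

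Each of 8 single embryos was measured on 1 single-colour Agilent array. Every embryo carried 1 copy of Eedl7Rn5-1989SB, a hypomorphic allele, on a C57bl6/129 background, and every mother was wild type. Eed encodes a core subunit of Polycomb repressive complex 2 (PRC2). Fathers of 4 embryos were homozygous for that allele (HOM father) and those of 4 were heterozygous (HET father), and each group held 2 females and 2 males. The allele is constitutive, so the fathers carried it in every cell and not only in the germline. Sires and litters are not in the labels, and the methods describe fewer sires than embryos per group. The p-values therefore measure the spread between embryos, some of which share a father. All HOM father arrays were on 1 slide and all HET father arrays on another, so father and slide cannot be told apart. The comparison by father addresses whether the genotype of the father altered expression in offspring of 1 genotype.

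The nucleosome is built from pairs of the core histones H2A, H2B, H3 and H4, and the linker histone H1 binds the DNA that enters and leaves it. Canonical copies of these genes lie in clusters, mostly lack introns, and are transcribed strongly in S phase when new chromatin is assembled. Their messages end in a conserved stem-loop in place of a poly(A) tail, with some polyadenylated transcripts known from differentiated cells. PRC2 itself acts on a histone, by methylating lysine 27 of H3. Many copies of 1 type are close to identical in sequence, and the files hold no probe sequences, so a signal named for 1 gene may include others of its type. The kit used to label the RNA primes from poly(A), and the part of this in the signals was not tested.

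The start sites of the members lie in a large cluster on chromosome 13 (34 of the tested genes, formerly Hist1) and a smaller one on chromosome 3 (8 genes, formerly Hist2). RefSeq promoter windows on GRCm38.p6 were matched by symbol for 39 of the 44 genes. The 4 stretches shown were picked because their genes carry the results below. They are the sequences before the starts of H1f4, H3c8 and H4c17, which were lower in embryos of HOM fathers, and the DNA that H2ac8 and H2bc8 share as neighbours transcribed in opposite directions. Sequences run 5′ to 3′ on the strand of the gene, and on the plus strand, that of H2bc8, for the shared DNA. Capitals mark exact matches, on either strand, to the CCAAT box (searched as CCAAT), the TATA box (TATAAA) or the octamer (ATTTGCAT), elements known in histone promoters.
H1f4, 200 bases before the start, chr13:23622559-23622758, minus strand: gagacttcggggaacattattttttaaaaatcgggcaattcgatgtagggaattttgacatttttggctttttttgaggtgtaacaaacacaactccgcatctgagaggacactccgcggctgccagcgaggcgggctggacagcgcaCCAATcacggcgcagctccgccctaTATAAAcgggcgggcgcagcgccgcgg
H3c8, 200 bases before the start, chr13:23535218-23535417, plus strand: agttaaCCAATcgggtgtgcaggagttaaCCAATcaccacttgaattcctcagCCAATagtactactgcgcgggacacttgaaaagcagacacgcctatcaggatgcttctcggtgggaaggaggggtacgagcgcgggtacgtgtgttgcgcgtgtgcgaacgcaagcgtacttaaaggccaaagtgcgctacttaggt
H4c17, 200 bases before the start, chr13:21811546-21811745, plus strand: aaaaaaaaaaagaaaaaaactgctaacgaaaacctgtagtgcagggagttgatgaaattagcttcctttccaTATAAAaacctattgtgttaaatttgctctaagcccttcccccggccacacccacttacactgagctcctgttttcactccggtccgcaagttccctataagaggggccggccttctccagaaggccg
H2ac8 and H2bc8, the 179 bases between the starts, chr13:23571221-23571399, plus strand: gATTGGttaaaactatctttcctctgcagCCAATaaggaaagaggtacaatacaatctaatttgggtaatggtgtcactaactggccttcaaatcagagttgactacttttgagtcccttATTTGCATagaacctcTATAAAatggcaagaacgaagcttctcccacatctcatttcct

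Searched on both strands in the 250 bases before the start, CCAAT was present in 34 of the 39 member genes (87.2%), against 34.5% of all 27025 genes with a window. Every H1, H2A, H2B and H3 window held it, but only 2 of 7 H4 windows did. TATAAA was present in 21 of 39 (53.8%), against 13% of all genes. The octamer was present in 11 of 39 (28.2%), against 1.61% of all genes, and these were 6 of 13 H2A windows and 5 of 8 H2B windows. Matches to different motifs overlapped in 0 of the 39 windows. Among the 6 genes with a window that were lower in embryos of HOM fathers, 5 held CCAAT, 4 TATAAA and 1 the octamer. Among the 3 that were higher, 2 held CCAAT, 1 TATAAA and 1 the octamer. A match is a description of these letters and says nothing of binding.

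Signals are given as log2 of the processed intensity minus the array's 75th percentile, so that 0 is the 75th percentile of the array. A signal depends on the probe as well as on the message, so levels are compared between embryos and never between genes. Of the 48 probes, 46 (42 genes) passed the expression filter, which required a probe to be well above background and above the dimmest 20% of probes on at least 4 of 8 arrays. The untested probes were H1f3, with no array well above background, and H2ac6, above it in 1 embryo of HOM fathers and 2 of HET fathers. No member spot was saturated or flagged as an outlier. On the 8 arrays 51.9 to 60.8% of spots were well above background. Arrays correlated at 0.988 to 0.993 within groups and at 0.982 to 0.992 between them. Eed itself was 4.72 ± 0.06 (SD, n = 4) with HOM fathers and 4.71 ± 0.05 with HET fathers, a difference of 0.01 (limma, adjusted p = 0.87). The number of arrays limits the precision of every value.

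No canonical histone probe changed by 2-fold or more at an adjusted p below 0.01 (limma, two-sided, Benjamini-Hochberg over all 29732 tested probes), a call made for 1.26% of all tested probes. At an unadjusted p below 0.05 there were 20 of 46 members, against 34.8% of all tested probes. At an adjusted p below 0.05, 7 member probes were lower and 3 were higher in embryos of HOM fathers, and 36 did not pass. Across all tested probes 8.69% were lower and 12.3% higher. Some embryos of a group share the leading number of their identifier, whose meaning is not given in the sources used here. With that number as a random block (consensus correlation 0.302), H1f4, H3c8 and H4c17 stayed past the threshold as lower and the other 7 probes did not, with adjusted p of 0.0526 to 0.102. The shares of all tested probes were then 5.93% lower and 10.4% higher. Median scaling of the arrays in place of the 75th percentile gave 26 lower and 0 higher members, quantile normalisation gave 6 and 0, and background correction by normexp gave 8 and 1. Of all tested probes, 7.99% were lower and 11.2% higher under quantile normalisation, and 11.5% and 11.8% under normexp. Median scaling also moved the median of all tested probes from -0.02 to -0.21, with 34.8% of them lower and 7.87% higher. All 4 HOM father arrays lay below all 4 HET father arrays for 7 members (13.0% of all tested probes) and above them for 2 (14.1%). The fitted change was negative for 36 of 46 members, with a median of -0.14, beside 54.1% negative and a median of -0.02 over all tested probes. The plot of changes by histone type shows every tested member.

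**Figure D1:**
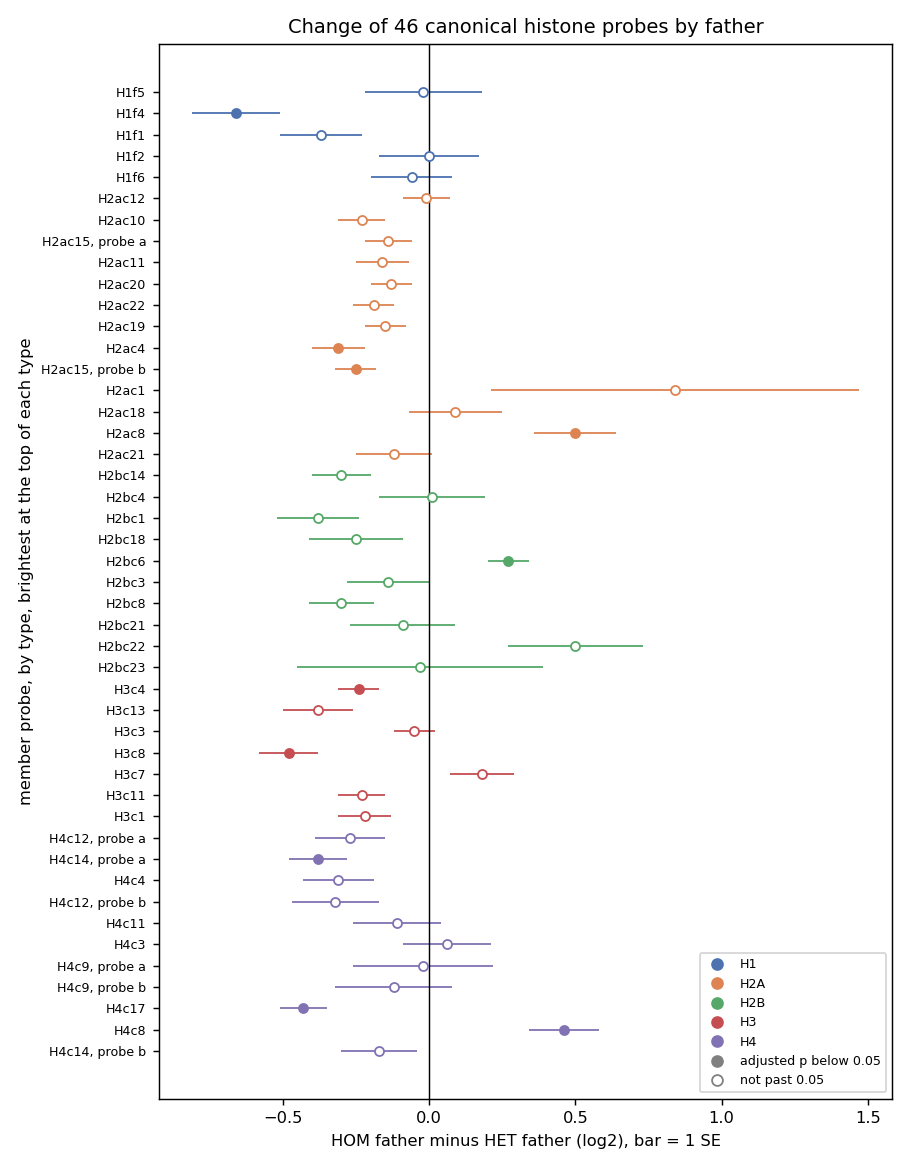
Fitted change of each of the 46 tested probes (HOM father minus HET father, log2, bar 1 SE), ordered by histone type and by signal within a type, with probes of the same gene lettered. Filled points passed an adjusted p of 0.05, of which 7 lie left of 0 and 3 right of it, between -0.66 for H1f4 and 0.50 for H2ac8, while the unfilled point farthest right is H2ac1 at 0.84.

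Among the linker histones 1 gene fell. H1f4 (formerly Hist1h1e), a somatic H1, was 4.56, 4.54, 4.35 and 4.70 with HOM fathers and 4.92, 5.02, 5.30 and 5.55 with HET fathers. Every embryo of a HOM father was below every embryo of a HET father. The means were 4.54 ± 0.14 and 5.19 ± 0.29 (SD, n = 4 each), a change of -0.66 (SE 0.15, limma, adjusted p = 0.018), or 1.58-fold lower. Without HET father replicate 3 the change was -0.62 (adjusted p = 0.0517). H1f5, the H1 probe with the highest signal, was 5.12, 4.63, 4.72 and 5.45 with HOM fathers and 5.29, 4.68, 4.95 and 5.10 with HET fathers. These groups overlapped, and the change was -0.02 (SE 0.20, limma, adjusted p = 0.949). Among the other H1 genes, H1f1 fitted at -0.37 (limma, adjusted p = 0.103), the testis-specific H1f6 at -0.06 and H1f2 at 0. Of the 5 tested H1 probes 1 passed, and their median was -0.06, or -0.20 under quantile normalisation.

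The H3 genes encode the protein whose lysine 27 PRC2 methylates, and 2 of their 7 probes were lower. H3c8 (Hist1h3g) was 0.12, -0.06, -0.04 and 0.15 with HOM fathers and 0.56, 0.43, 0.35 and 0.74 with HET fathers. The groups did not overlap, and the change was -0.48 (SE 0.10, limma, adjusted p = 0.0122), or 1.40-fold lower. H3c4 (Hist1h3d), the H3 probe with the highest signal, was 5.42, 5.41, 5.36 and 5.55 with HOM fathers and 5.76, 5.55, 5.62 and 5.78 with HET fathers. The highest HOM father value and the lowest HET father value were the same to 2 decimals, and the change was -0.24 (SE 0.07, limma, adjusted p = 0.0471). The other 5 probes fitted between -0.38, for H3c13 (limma, adjusted p = 0.053), and 0.18, for H3c7. H3c7 lies next to H3c8 in the order of tested genes along the chromosome. The median of the 7 H3 probes was -0.23.

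Among H4 probes 2 of 11 were lower and 1 was higher. H4c17 (Hist1h4m) was -1.45, -1.59, -1.71 and -1.51 with HOM fathers and -1.10, -1.27, -1.02 and -1.14 with HET fathers. The groups were apart, and the change of -0.43 (SE 0.08, 1.35-fold lower) had the lowest adjusted p of any member (limma, 0.00798). H4c14 (Hist2h4) was 6.34, 6.09, 6.11 and 6.51 with HOM fathers and 6.64, 6.59, 6.65 and 6.68 with HET fathers, a change of -0.38 (SE 0.10, limma, adjusted p = 0.0298). The HET father embryos lay within 0.1 of each other and above every HOM father embryo. A second, dim probe of H4c14 was above background on 2 arrays of each group and fitted at -0.17 (SE 0.13, limma, adjusted p = 0.384). H4c12 (Hist1h4k), with the highest signal among H4 probes, was 6.71, 6.30, 6.38 and 6.82 with HOM fathers and 6.92, 6.75, 6.78 and 6.84 with HET fathers. HOM father replicates 2 and 3 were below all others and replicate 4 was within the HET father range. Its change was -0.27 (SE 0.12, limma, adjusted p = 0.159), and that of its second probe was -0.32 (adjusted p = 0.184).

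H4c8 (Hist1h4h) went the other way. Its signal was -3.31, -3.27, -3.35 and -2.90 with HOM fathers and -3.90, -3.49, -3.62 and -3.67 with HET fathers. No value of 1 group reached the other, and the change was 0.46 (SE 0.12, limma, adjusted p = 0.0353), or 1.38-fold higher. The 11 H4 probes had a median of -0.17.

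**Figure D2:**
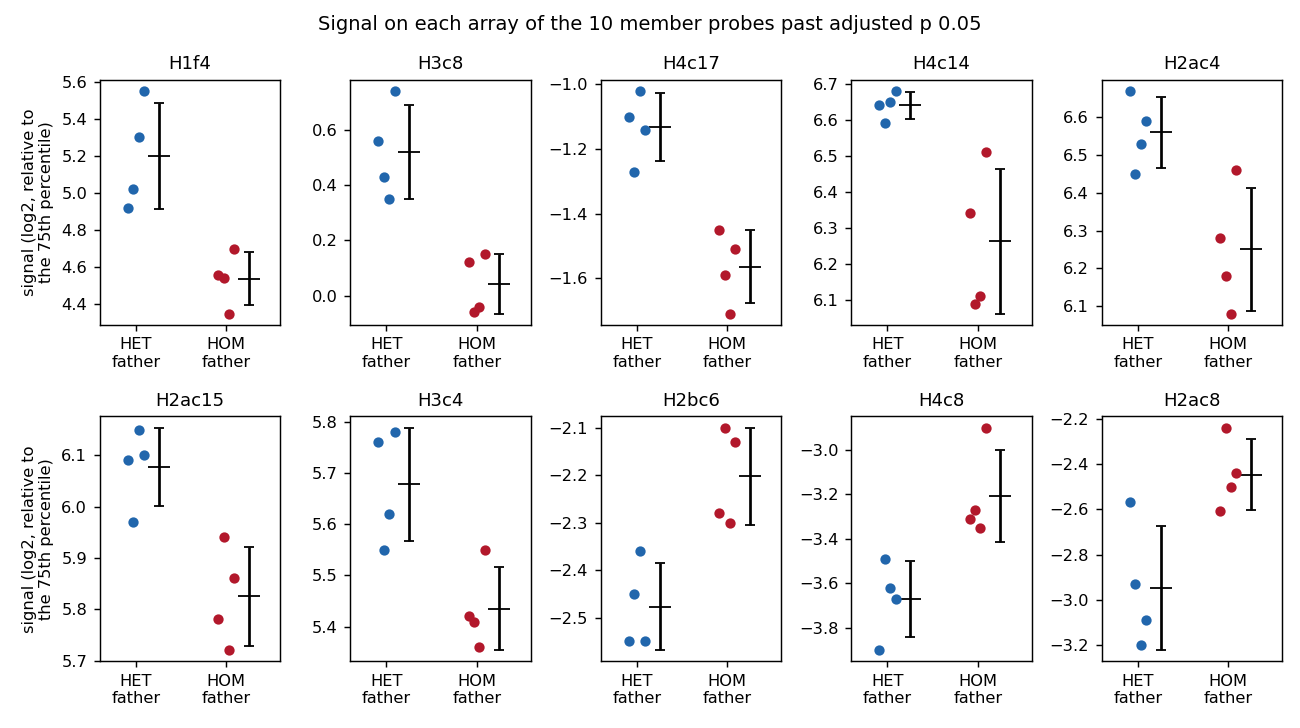
Signal on each array (log2, relative to the array's 75th percentile) of the 10 member probes with an adjusted p below 0.05, ordered by change, with the mean and SD (n = 4) beside each group. The vertical axes differ between panels and do not start at 0. Embryos of HOM fathers are lower for the first 7 genes and higher for H2bc6, H4c8 and H2ac8, with single values of the 2 groups crossing for H2ac4 and H2ac8.

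The H2A genes had the brightest probes of all members. H2ac12 (Hist1h2ah), the brightest, was 8.39, 8.27, 8.27 and 8.56 with HOM fathers and 8.48, 8.24, 8.41 and 8.40 with HET fathers. The groups overlapped fully, and the change was -0.01 (SE 0.08, limma, adjusted p = 0.937). In all, 7 H2A probes had mean signals of 7.83 to 8.38. All 7 fitted below 0, by -0.23 to -0.01, and none passed the test. Under quantile normalisation 6 of the 7 fitted below 0, with a median of -0.04 in place of -0.15, and H2ac12 was at 0.05. Outside these, 2 H2A probes passed as lower.

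H2ac4 (Hist1h2ab) was 6.28, 6.18, 6.08 and 6.46 with HOM fathers and 6.67, 6.45, 6.53 and 6.59 with HET fathers, a change of -0.31 (SE 0.09, limma, adjusted p = 0.0489). HOM father replicate 4 was level with the lowest HET father embryo. H2ac15 (Hist1h2ak) was 5.78, 5.94, 5.72 and 5.86 with HOM fathers and 6.09, 5.97, 6.15 and 6.10 with HET fathers on 1 of its probes. That probe separated the groups, with a change of -0.25 (SE 0.07, limma, adjusted p = 0.0316). The other H2ac15 probe was 7.87, 7.89, 7.82 and 8.09 with HOM fathers and 8.13, 7.92, 8.13 and 8.07 with HET fathers. There the groups overlapped and the change was -0.14 (SE 0.08, limma, adjusted p = 0.234).

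H2ac8 (Hist1h2ae) was higher, at -2.61, -2.24, -2.50 and -2.44 with HOM fathers and -2.57, -2.93, -3.20 and -3.09 with HET fathers. HET father replicate 1 lay among the HOM father embryos, and the change was 0.50 (SE 0.14, limma, adjusted p = 0.0429). The H2A probe with the largest spread was H2ac1 (Hist1h2aa), a histone gene known from testis. It was -1.83, 0.29, -0.65 and -0.42 with HOM fathers and -0.95, -2.65, -0.17 and -2.20 with HET fathers. Embryos of both groups lay at both ends of this range, and the change of 0.84 had an SE of 0.63 (limma, adjusted p = 0.388). Over the 13 tested H2A probes the median was -0.14, and -0.04 under quantile normalisation.

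Among 10 H2B probes 1 was higher and none lower. H2bc6 (Hist1h2be) was -2.28, -2.10, -2.30 and -2.13 with HOM fathers and -2.55, -2.45, -2.36 and -2.55 with HET fathers. The groups did not overlap, although the change was small at 0.27 (SE 0.07, limma, adjusted p = 0.031), and under median scaling it was 0.08 (adjusted p = 0.436). H2bc14 (Hist1h2bm), the H2B probe with the highest signal, was 3.22, 2.95, 2.94 and 3.24 with HOM fathers and 3.39, 3.33, 3.28 and 3.55 with HET fathers. Here too the groups were apart, but the change of -0.30 (SE 0.10, limma, adjusted p = 0.0637) did not pass. The median of the H2B probes was -0.11, or between -0.30 and -0.08 under the other scalings.

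H3c8 and H4c17 passed under all 11 other settings tried and with any 1 array left out. H1f4 passed under 10 of the 11, failing without the filter on dim probes (-0.66, limma, adjusted p = 0.0575). The other 7 passed under 4 to 8 of the 11 and in 1 to 3 of the 8 fits with an array left out, and each kept its direction in all of these fits. With any 1 array left out, 2 to 10 members were lower and 0 to 2 higher, 2 lower without HET father replicate 3, 10 lower without HOM father replicate 4, and none higher without HOM father replicate 4 or HET father replicate 4. Fewer than 5 lower members were also left without HOM father replicate 1, 2 or 3 (3, 4 and 3) and without HET father replicate 1 or 4 (3 each), and 1 higher member without HOM father replicate 2 or HET father replicate 1, 2 or 3. In the same fits 3.92 to 8.97% of all tested probes were lower and 9.56 to 11.7% were higher. The median change of the members ranged from -0.23 without HOM father replicate 4 to -0.11 without HOM father replicate 3.

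Under the main scaling, the direction of the change went with the brightness of the probe, among members and across the array. Of 29 members with a mean signal above 0, 6 were lower and 0 higher, and 26 fitted below 0 with a median of -0.23. Over all tested probes in that range 15.0% were lower, 6.34% higher and 67.6% negative, with a median of -0.07. Of 17 members below 0, 1 was lower and 3 were higher, and 10 fitted below 0 with a median of -0.06. The corresponding figures for all dim probes were 3.57% lower, 17.1% higher and 43.3% negative, with a median of 0.05. All 13 members with a signal above 5 fitted below 0 (median -0.23), as did 77.9% of all such probes (median -0.11). The members above 0 also had the lower median under median scaling (-0.42, against -0.25 below 0) and normexp (-0.16 against -0.08). The deposited table of the whole series gave -0.23 and -0.06. Quantile normalisation reversed this order. Under quantile normalisation the median was -0.13 for the members above 0 (24 of 29 negative), -0.24 for those below 0 (10 of 17) and -0.13 for those above 5 (12 of 13). The part of brightness in the members' direction was not tested otherwise.

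**Figure D3:**
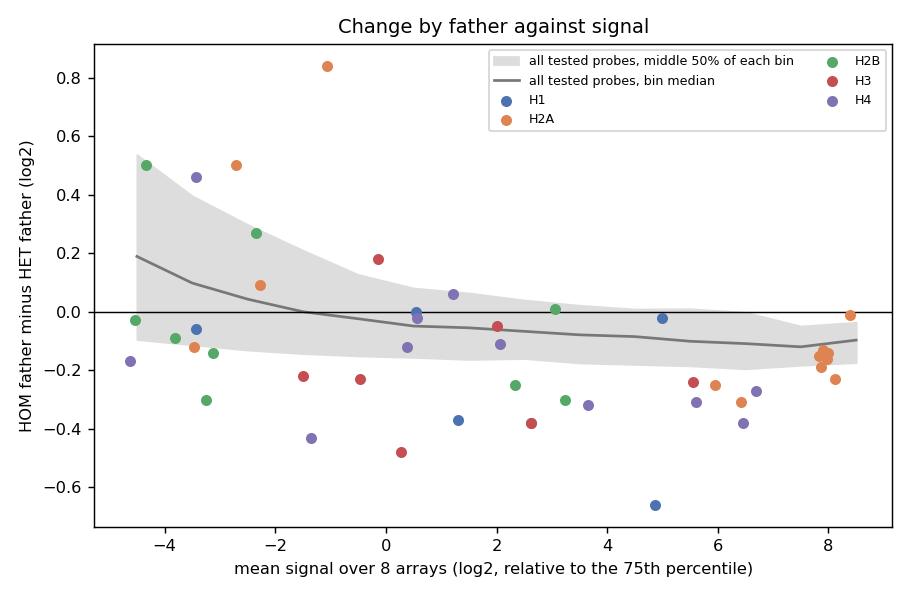
Fitted change (HOM father minus HET father, log2) against mean signal over 8 arrays (log2, relative to the 75th percentile) for the 46 tested members, coloured by histone type. The grey line and band are the median and middle 50% of all tested probes in bins 1 unit wide, which fall from above 0 for dim probes to below 0 for bright ones, and 26 of 29 members right of 0 lie below 0.

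Single arrays differed in the level of the members as a group. Relative to each probe's mean over 8 arrays, their median deviation was -0.06, -0.22, -0.22 and 0.11 on the HOM father arrays and 0.14, 0, 0.04 and 0.15 on the HET father arrays. HOM father replicates 2 and 3 were thus the lowest, while replicate 4 lay within the range of the HET father embryos. H1, H2B and H4 showed this most, with H4 at 0.02, -0.36, -0.30 and 0.20 with HOM fathers and 0.12, 0.07, 0 and 0.21 with HET fathers. H3 was -0.09, -0.15, -0.20 and 0.02 with HOM fathers and 0.21, 0, 0.06 and 0.17 with HET fathers. H2A had the smallest range, from -0.19 to 0.14.

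**Figure D4:**
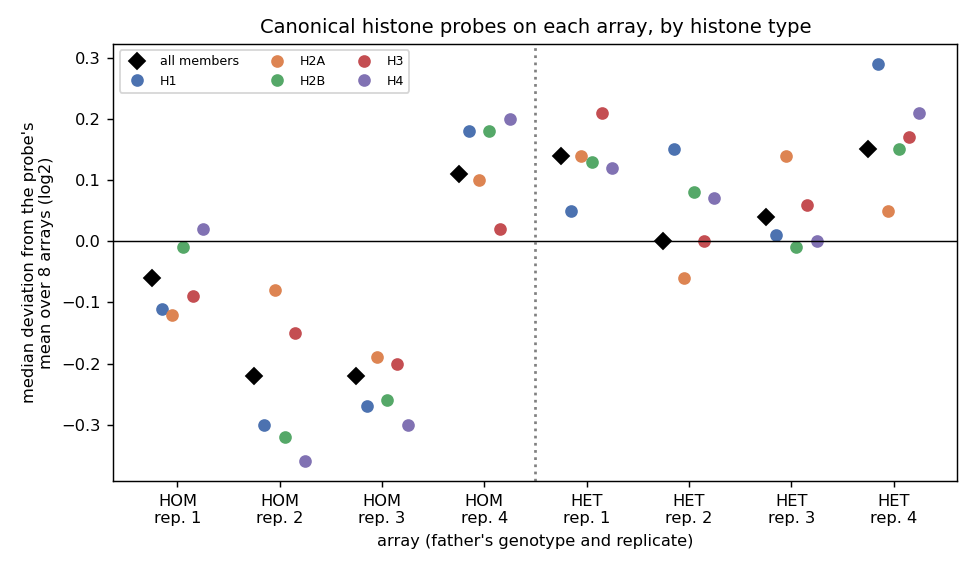
Median deviation of the tested members from each probe's own mean over the 8 arrays (log2), for all 46 probes (diamonds) and for each histone type (circles), on each array. HOM father replicates 2 and 3 are lowest at -0.22 each for all members, and HOM father replicate 4, at 0.11, lies among the HET father arrays.

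Both clusters fitted alike, with a median of -0.14 over 37 probes on chromosome 13 and -0.15 over 9 probes on chromosome 3. Within the chromosome 13 cluster lower genes lay among and on both sides of the higher ones. The 3 higher genes were 14th (H4c8), 18th (H2ac8) and 22nd (H2bc6) among the 34 tested genes in order along the chromosome, and the 6 lower genes were 4th (H2ac15), 10th (H4c17), 16th (H3c8), 20th (H3c4), 23rd (H1f4) and 30th (H2ac4). In 3 pairs of tested members the promoter windows overlapped and the genes pointed away from each other, each pair being an H2A and an H2B gene. In each pair the fitted changes had opposite signs. These pairs were picked out after their values were seen, and no difference within a pair was tested.

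For the pair whose shared DNA is printed above, H2ac8 was higher by 0.50, while H2bc8 was -3.30, -3.59, -3.57 and -3.20 with HOM fathers and -3.04, -3.02, -3.28 and -3.12 with HET fathers. Its groups overlapped by HOM father replicate 4 and HET father replicate 3, and its change was -0.30 (SE 0.11, limma, adjusted p = 0.0841). H2bc1 fitted at -0.38 (limma, adjusted p = 0.0876) beside 0.84 for H2ac1, and its signal stayed within 2.22 to 3.07 on the arrays where H2ac1 ran from -2.65 to 0.29. H2ac22 fitted at -0.19 (adjusted p = 0.0928) beside 0.50 for H2bc22 (adjusted p = 0.162).

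No member passed an adjusted p of 0.05 between females and males (limma, with father as a covariate), a call made for 0.121% of all tested probes, and the lowest adjusted p was 0.914. At an unadjusted p below 0.05 there was 1 member, against 5.22% of all tested probes. It was H1f6, named after its value was seen, with a female minus male difference of -0.28 (limma, adjusted p = 0.914). The effect of father did not pass for a difference between the sexes in any member, with 0 of 46 at an unadjusted p below 0.05 as well, against 0.0639% adjusted and 4.51% unadjusted of all tested probes. Each sex had 2 embryos in each group.

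Genes that supply or handle histones were set beside the members, each by its brightest tested probe. For the counts of these and the later lists, 8.69% of all tested probes were lower and 12.3% higher. Among all tested probes with a signal above 0 the shares were 15.0% and 6.34%, and above 5 they were 20.7% and 2.75%. Of 12 genes listed as replication-independent histones, 2 were lower and 1 higher, with a median of -0.12. H1f8, the linker histone of oocytes, was -2.44, -2.54, -2.38 and -2.28 with HOM fathers and -2.97, -3.16, -3.19 and -3.38 with HET fathers. It was higher by 0.77 (SE 0.10, limma, adjusted p = 0.00166) with the groups well apart. H2aj fell by 0.25 (limma, adjusted p = 0.0472) and H2az2, an H2A.Z gene, fell by 0.18 (adjusted p = 0.0475).

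Of 24 tested genes for transcription and 3′ end processing of histone messages, 6 were lower and 1 higher, with a median of -0.12. Ccne2, a cyclin of the entry into S phase, was -3.40, -3.76, -3.88 and -3.08 with HOM fathers and -5.21, -6.37, -5.82 and -4.56 with HET fathers, and was the gene counted as higher. Its probe was well above background on 4 HOM father arrays but on only 2 HET father arrays, and it passed the filter through the HOM father group, so no size is given. Sympk, the scaffold of the cleavage complex, fell by 0.50 (SE 0.12, limma, adjusted p = 0.0214). Upf1, a helicase that acts in histone message decay, fell by 0.36 (SE 0.06, limma, adjusted p = 0.0075). The probe of Npat, the coactivator of histone gene transcription, rose well above background in no embryo.

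Of 22 histone chaperone and importer genes, 4 were lower and none higher (median -0.07). They included Asf1b (-0.32, limma, adjusted p = 0.019), a chaperone of H3 and H4, Supt6 (-0.30, adjusted p = 0.00379) and Cabin1 (-0.28, adjusted p = 0.00621). Of 22 S phase genes, 5 were lower and none higher (median -0.04), the largest falls being those of the DNA ligase Lig1 (-0.23, limma, adjusted p = 0.016), Uhrf1 (-0.22, adjusted p = 0.0343) and the ribonucleotide reductase subunit Rrm2 (-0.21, adjusted p = 0.0369). Beside these counts, 15.0% of all tested probes with a signal above 0 were lower, and 20.7% of those above 5. Of 16 mitosis genes, 2 were lower and 1 higher (median -0.06). Aurkb, a kinase of the chromosomal passenger complex, was higher by 1.79 (limma, adjusted p = 2.65e-05), and Ube2c (-0.25, adjusted p = 0.0119) and Cdc20 (-0.20, adjusted p = 0.0277) were lower.

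**Figure D5:**
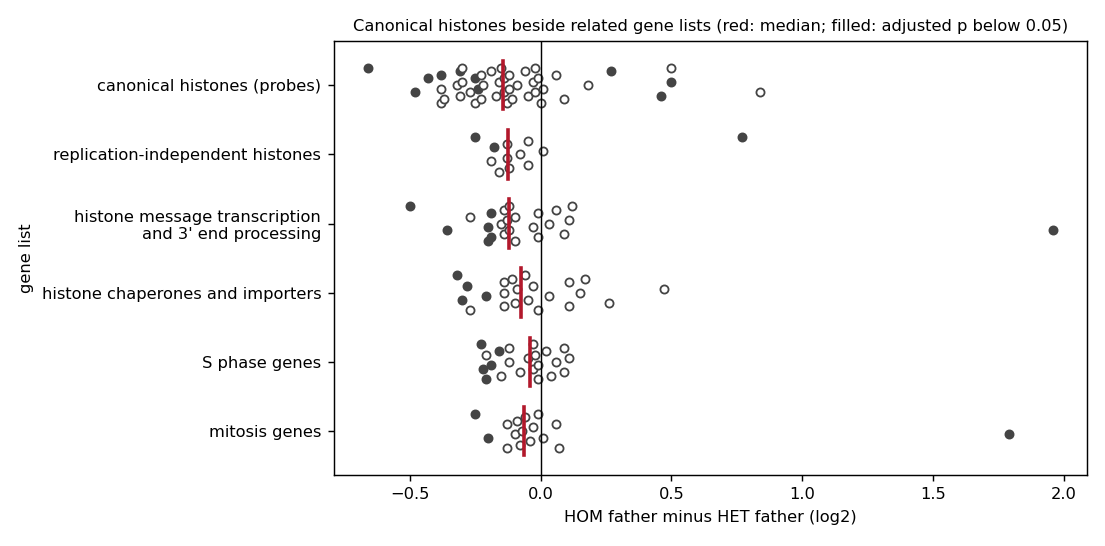
Fitted change (HOM father minus HET father, log2) of the 46 canonical histone probes and of the tested genes of 5 related lists, 1 point per probe or gene, with the median of each list in red and an adjusted p below 0.05 shown by filled points. Medians lie between -0.14 for the canonical histones and -0.04 for S phase genes, and the farthest points to the right are Ccne2, whose probe was well above background on only 2 HET father arrays, and Aurkb at 1.79.

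The summed signal of the S phase list, in log2, was 9.41 to 9.48 with HOM fathers and 9.50 to 9.59 with HET fathers, without overlap. For the mitosis list it was 8.33 to 8.44 and 8.45 to 8.54, and for message transcription and processing 7.07 to 7.21 and 7.24 to 7.29. The groups overlapped for the replication-independent histones, at 9.42 to 9.56 and 9.54 to 9.68. They also overlapped for the chaperones and importers, at 8.92 to 9 and 8.93 to 9.03. Bright probes as a whole were lower too, with a median of -0.11 and 77.9% negative for all tested probes above 5. The sums without overlap were lower in the same group as the canonical histones, and their part in the result was not tested. In whole embryos a smaller share of cells of 1 kind and less message per cell cannot be told apart.

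All 10 markers of the embryo proper were tested. Their summed signal was 4.93 to 5.09 with HOM fathers and 5.04 to 5.22 with HET fathers, and Tbx6 fell by 0.32 (limma, adjusted p = 0.0359). Primitive erythroid markers summed to 9.26 to 9.63 and 9.62 to 9.68. Yolk sac endoderm markers summed to 8.85 to 9.17 and 9.04 to 9.12, with 1 of 8 lower (Apoa1, -0.41, limma, adjusted p = 0.0139). Of 5 tested trophoblast markers 1 was lower (Gcm1, -1.07, limma, adjusted p = 0.0217), with sums of 4.11 to 4.83 and 4.55 to 5.15. The median of the 5 was 0.24, and 2 of them fitted below 0. HOM father replicate 2 was the highest array for Ascl2 (1.67), Tfap2c (1.01) and Prl3d1 (1.97), but not for Gcm1 or Hand1. Tpbpa, which defines spongiotrophoblast, was above background on 0 arrays. Maternal decidua markers summed to 2.57 to 4.84 and 2.69 to 3.43, with none of 7 past the test. The decidual prolactin gene Prl8a2 (2.97, limma, adjusted p = 0.215) varied most between embryos of 1 group. It was 0.29, 4.14, 4.45 and 1.30 with HOM fathers and 1.85, 1.88, -1.42 and -3.99 with HET fathers. HOM father replicates 2 and 3, lowest for the histone members, were highest for this gene. Other genes of the same list went both ways. Pgr was also highest in HOM father replicates 2 and 3 (-3.69 and -3.67), and Hoxa10 and Hoxa11 were highest in replicate 2 (-2.32 and 0). Dcn and Wnt4 were lowest in HOM father replicate 2 (0.91 and -0.55), but Dcn was highest in replicate 3 (1.53). Bmp2 was highest in neither. What these tissues contributed to the histone signals was not tested.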

How the data were processed

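RNA of 8 single E8.5 embryos was measured on Agilent SurePrint G3 Mouse GE arrays from 0.2 µg of total RNA per the labels. The deposited scanner files hold spot intensities on a linear scale, which the authors obtained with Agilent Feature Extraction version 11.0.1.1 (background subtraction and spatial detrending, no normalisation between arrays). The deposited spot flags are other values, of 0 or 1. The processed intensity was taken as log2 minus the array's 75th percentile. Flagged outlier spots were left out and spots of 1 probe averaged. On at least 4 of 8 arrays a tested probe had to clear the background flag and not rank in the dimmest 20%. Accessions were matched to RefSeq symbols of GRCm38.p6 for 27235 probes (48.9%). Groups and sex came from the labels. Two-sided linear models (limma 3.58.1 under R 4.3.3) with Benjamini-Hochberg adjustment compared the groups, and the fit was tested on simulated data.

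Members, gene lists and tests were chosen with earlier results of these data known. Genes of the same symbol form that never had a Hist name (H1f0, H1f7, H1f8 and H1f10) were left out, as were genes with a former Hist name and a symbol of another form (H2aw, H2bu2 and H4f16). By rule, values of each array are given for members past an adjusted p of 0.05 by father (up to 8 in each direction) and for the probe with the highest signal of each type, with all probes of such genes. Other lists name up to 3 genes past that threshold. Alternatives were other scalings and filters, the deposited table of the whole series, other covariates and blocks, and each array left out. The files used here hold no mean spot signal, so normexp (offset 50) used the median signal and local background. The result for 1 marker gene is not reported here.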

Additional observations from a re-analysis of the deposited data

Results flagged for a closer look

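Within each group of 4 embryos, a value was looked at again when its gap to the nearest other value took up most of the range of the group by Dixon's test. Chance flags about 1 in 20 groups, and 3 of 104 groups looked at had such a value. In HOM father replicate 2, H2bc23 was -5.94, while the other embryos of HOM fathers lay at -4.19 to -3.95. In HET father replicate 3, H2bc4 was 2.64, against 3.16 to 3.20 in the other embryos of HET fathers. In HET father replicate 2, H3c1 was -1.61, against -1.31 to -1.29 in the other embryos of HET fathers. None of these 3 probes passed the test by father.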

How the results depend on the processing

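No member was called at 2-fold, by sex or for father by sex under any setting run. The 7 lower members became 26 with median scaling (34.8% of all probes), 2 without the filter on dim probes (0.788%) and 3 with the identifier number as a random block (5.93%). The 3 higher members became 1 with normexp (11.8% of all probes). They became 0 with quantile normalisation (11.2%), median scaling (7.87%) or no filter (4.80%). They also became 0 with the identifier number (10.4%) or the replicate number (9.47%) as a block. With 1 array left out the counts were 2 to 10 lower and 0 to 2 higher, beside 3.92 to 8.97% and 9.56 to 11.7% of all probes. The median change was -0.34 with median scaling, which moved all probes too, and -0.23 to -0.11 with 1 array left out. The causes were not tested. Same-numbered embryos correlated at 0.19, -0.09, -0.13 and 0.15 in their deviations from the group means. The same-numbered HET father embryo correlated best with HOM father replicates 1 and 4, but not with 2 and 3. As they point both ways, these values cannot decide whether the numbers pair samples. With the replicate block 5 members were lower and 0 higher (2.25% and 9.47% of all probes), with a median of -0.14, and no member was past 0.05 by sex or for father by sex (0 each). H1f5 turned positive with quantile normalisation (0.03) and without HOM father replicate 2 (0.09), HOM father replicate 3 (0.06), HET father replicate 1 (0.07) or HET father replicate 4 (0.01), within -0.18 to 0.09 over all arrays left out. H2ac12 did so with quantile normalisation (0.05) and without HOM father replicate 2, HOM father replicate 3 or HET father replicate 1 (0.02 each), within -0.07 to 0.02. H2bc14 passed under median scaling (-0.49, adjusted p = 0.00848), with an intensity trend and with the replicate block, and H4c12 under median scaling (-0.46, adjusted p = 0.0185), by limma. Adding genes of the same symbol form, or genes with a former Hist name, was chosen after seeing the data and gave 7 lower members each, with 4 and 3 higher. Choosing members by the gene name in the scanner files was not run, as no such column was used here. Values near background are the least precise.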
